A study of Mus musculus with 2 samples.

Results

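The levels of 6 complement genes were followed through cell classes of the adult mouse thymus: the components C3, C4b, Cfb and Cfp and the receptor genes C3ar1 and C5ar1. They were chosen by symbol, as complement genes other than the C1q subunits, and all 6 were found among the 32285 gene rows of the library sequenced in 2021. That library and a second from 2024 carry the same labels: thymus of adult C57BL/6 mice with no treatment given, digested with enzymes, sorted by flow cytometry for CD64 (an Fc receptor for IgG found on macrophages and monocytes) and sequenced with the 10x Genomics 3′ chemistry. The labels do not say how many animals were used or whether they were pooled. Gene names of the 2024 library were not used here, so every level below comes from 1 library and has no replicate. No difference was tested, and intervals cover counting error only.

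Complement is a cascade of plasma proteins that marks particles for uptake and calls in leukocytes. C4b of the classical and lectin pathways and factor B (Cfb) of the alternative pathway each supply part of a convertase that cleaves C3, and properdin (Cfp) holds the alternative convertase together. The fragments released from C3 and C5 act on the receptors encoded by C3ar1 and C5ar1. The liver makes most of the circulating proteins, and myeloid cells are a known local source of several, properdin above all.

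The cells behind these values were 3188 of 3214 barcodes, those with 500 or more UMIs (unique molecular identifiers, which count transcript molecules), 300 or more genes and no more than 10% of UMIs from mitochondrial genes. Their 8517422 UMIs gave a median of 2171.5 per cell. The 2024 library had 2815 barcodes with a median of 5312 UMIs. Clusters were built without the 6 genes and without a list of 50 other complement genes, and were named from markers that hold none of them. The labels call the cells macrophages, but macrophage-like clusters held 364 cells, or 11.4% (exact binomial 95% interval 10.3 to 12.6). The others were 821 conventional dendritic cell-like, 502 neutrophil-like, 463 monocyte-like, 384 T lineage-like, 297 NK and innate lymphoid-like, 211 B lineage-like and 11 eosinophil, basophil or mast cell-like cells, and 135 cells stayed unnamed. Median depth of the named classes ran from 975 UMIs in NK and innate lymphoid-like cells to 3313 in conventional dendritic cell-like cells, and it was 5728 in the unnamed cells. T lineage-like cells, with a median of 1058 UMIs, served as the class that should lack these transcripts, because free RNA can enter any droplet.

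All 6 genes lie on the minus strand, and 3 of them lie on chromosome 17 of GRCm38 (mm10). C4b spans chr17:34728380-34743882, Cfb spans chr17:34856374-34862518 and C3 spans chr17:57203970-57228136. Cfp is at chrX:20925454-20931555, C3ar1 at chr6:122847138-122856161 and C5ar1 at chr7:16246743-16259540. Gm20547, a gene model on the same strand, overlaps Cfb, so reads that fit both may not be counted for Cfb. C4b has the near-identical paralog C4a, and its counts carry the same doubt.

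RefSeq promoters (GRCm38.p6) were matched for 4 of the 6 genes: C3, Cfp, C3ar1 and C5ar1. The 250 bases before the start were searched on both strands for a C/EBP motif (TTGCNNAA), a PU.1 motif (GAGGAA), an interferon-stimulated response element and an AP-1 motif (TGANTCA) and no match overlapped another motif of the set. The 2 promoters with a match are shown to set side by side a gene found in 3 myeloid classes (C3) and a gene found mostly in macrophage-like cells (C3ar1). Each is written 5′ to 3′ on the minus strand, with the match in capitals.
C3, chr17:57228137-57228386: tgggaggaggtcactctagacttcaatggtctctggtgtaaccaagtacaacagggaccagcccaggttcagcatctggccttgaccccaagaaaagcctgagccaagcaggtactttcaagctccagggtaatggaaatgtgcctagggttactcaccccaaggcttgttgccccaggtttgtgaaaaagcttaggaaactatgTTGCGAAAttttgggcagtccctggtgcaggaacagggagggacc
C3ar1, chr6:122856158-122856407: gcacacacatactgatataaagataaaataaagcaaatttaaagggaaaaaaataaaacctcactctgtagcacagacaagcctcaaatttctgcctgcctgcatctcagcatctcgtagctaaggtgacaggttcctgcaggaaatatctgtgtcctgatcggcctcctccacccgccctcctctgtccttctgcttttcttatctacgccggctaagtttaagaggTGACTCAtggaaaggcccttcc
The C3 match to the C/EBP motif, TTGCGAAA, lies 45 to 38 bases before the start. That motif was present in 9.56% of 32851 promoter windows of this length. The C3ar1 match to the AP-1 motif, TGACTCA, lies 22 to 16 bases before the start, and 6.75% of windows held that motif. The PU.1 motif was in 23.3% of windows and the interferon element in 2.98%. The Cfp and C5ar1 windows held none of the 4 motifs. A match describes letters in a window and was not tied to binding.

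C3, the protein on which all complement pathways meet, was the most widely detected of the 6, with 1324 UMIs in 685 cells (21.5%). Its pooled level, in UMIs of the gene per 1e6 UMIs of the same cells (CPM), was 408 (Poisson 95% interval 373 to 444) in neutrophil-like cells. It was 319 CPM (286 to 354) in macrophage-like cells and 264 CPM (233 to 298) in monocyte-like cells. The macrophage-like level was 0.782 times (exact binomial 95% interval 0.68 to 0.897) the neutrophil-like one and 1.21 times (1.02 to 1.43) the monocyte-like one. In CPM, neighbours in this order thus differed little more than counting error. This depends on the scaling, as S100a8 and S100a9 alone took 193958 and 165580 CPM of neutrophil-like cells. Scaled by the median of ratios, the log2 ratio of macrophage-like over neutrophil-like C3 was -1.02 in place of -0.35. Over monocyte-like cells it was 0.30 in place of 0.26. Conventional dendritic cell-like cells had 22.9 CPM (17.7 to 29.2), and this interval overlapped that of the T lineage-like 26.7 CPM (16.5 to 40.8). After each cell was thinned to 2000 UMIs, 50.2% of neutrophil-like, 43.1% of monocyte-like and 38% of macrophage-like cells had a C3 UMI, against 5.31% of T lineage-like cells. Thinning left out shallower cells, namely 289 neutrophil-like, 238 monocyte-like, 114 macrophage-like and 271 T lineage-like cells. Of the 225 monocyte-like cells kept, 211 were from the cluster led by Gm9733 and F13a1. The thinned share of conventional dendritic cell-like cells (3.01%) lay below the 5.31% of T lineage-like cells. Of the 6 T lineage-like cells with a UMI, 5 were from a cluster led by Rag1. Among conventional dendritic cell-like cells, the cluster led by Ccl17 and Plet1 had 29.5 CPM (22.2 to 38.6). The cluster led by Cd209e and Cd209d had 0 UMIs, and the Ccl17, Plet1 level was 5.8 times its limit of 3 counts. The exact interval of the ratio of these 2 clusters began at 4.56. How much of this C3 is background was not tested. Unthinned, the 4 myeloid shares were 48%, 36.7%, 44.5% and 5.36% in neutrophil-like, monocyte-like, macrophage-like and conventional dendritic cell-like cells.

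**Figure D1:**
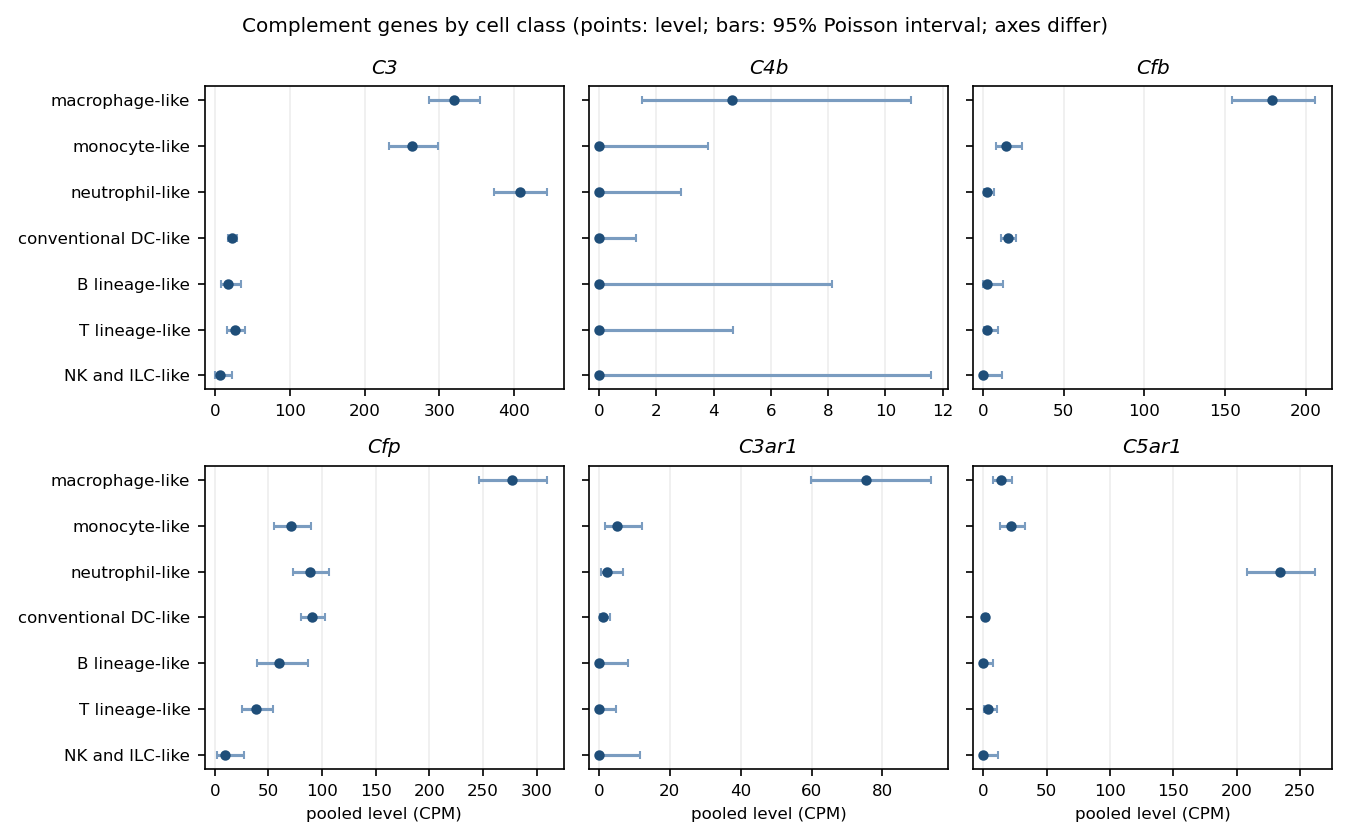
Pooled level of each gene (x axis, CPM; the axes differ between panels) in 7 cell classes (y axis), with exact Poisson 95% intervals as bars. C3 is high in 3 myeloid classes, Cfb and C3ar1 stand out in macrophage-like cells at 179 and 75.5 CPM, and C5ar1 stands out in neutrophil-like cells at 234 CPM.

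C3 was uneven within each class. Of the 2 macrophage-like clusters, the 288 cells led by the chemokines Ccl12 and Ccl8 had 384 CPM (343 to 429) of C3, and the 76 cells led by Vcam1, Gdf15, the iron exporter Slc40a1 and Spic had 91.2 CPM (57.2 to 138). Their ratio was 4.21 (2.74 to 6.82), with 28 of the 320 C3 UMIs of the Ccl12, Ccl8 cluster in 1 cell. Summed neutrophil markers were at 14869 CPM in the Vcam1, Gdf15 cluster and 530 CPM in the Ccl12, Ccl8 cluster, and 76.6% of all macrophage-like S100a8 UMIs came from 1 cell. Their part in the C3 values was not tested. Of the monocyte-like clusters, the 349 cells led by Gm9733 and F13a1 were at 293 CPM, 2.27-fold (1.47 to 3.7) above the 129 CPM of the 114 cells led by Ace and Adgre4. A T lineage-like cluster led by Rag1, with 14 C3 UMIs in 8 of its cells, reached 96.6 CPM (52.8 to 162), and the C3 level of the Vcam1, Gdf15 cluster did not exceed it. That T lineage-like cluster also had 1395 CPM of the 19 summed macrophage markers and 2651 CPM of the 17 summed neutrophil markers, whose part in the C3 value was not tested.

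Among neutrophil-like cells, C3 was at 471 CPM in the 57 cells led by the granule genes Camp and Ngp and at 532 CPM (467 to 602) in the 191 cells led by Ltf and Ly6g. It was 206 CPM (152 to 273) in the 137 cells led by Retnlg and Mmp8, so the Ltf, Ly6g cluster was 2.58-fold (1.89 to 3.6) higher than that cluster. The 104 cells led by Csf3r and Stfa2l1 had 308 CPM and the 13 cells led by Elane and Prtn3 had 239 CPM. In textbook order, Elane and Prtn3 mark the earliest granule stage, Camp, Ngp and Ltf the next, and Retnlg and Mmp8 later cells. C3 was therefore highest in the 2 clusters of the middle granule genes. The same 2 clusters had the highest thinned shares, 62.3% (47.9 to 75.2) in the Camp, Ngp and 56.2% (46.2 to 65.9) in the Ltf, Ly6g cluster, in the opposite order to their levels. The Retnlg, Mmp8 cluster had 30.6% (16.3 to 48.1) and the Elane, Prtn3 cluster 30.8% (9.09 to 61.4). Median depth went from 9770 UMIs in the Elane, Prtn3 cluster to 786.5 in the Csf3r, Stfa2l1 cluster, which was too shallow for a thinned share.

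C4b, the classical-pathway C4 of the mouse, was seen in 15 of 3188 cells (0.471%). Of its 71 UMIs, 66 (93%) were in an unnamed cluster of 21 cells led by Saa3, Prg4, Pf4, Retnla and Ecm1, a cluster with 14 raised macrophage markers. There C4b reached 913 CPM (706 to 1161), with UMIs in 10 of the 21 cells and up to 17 in 1 cell, and 49 UMIs remained without that cell. The other 5 UMIs lay in 5 macrophage-like cells, 3 in the Ccl12, Ccl8 cluster and 2 in the Vcam1, Gdf15 cluster, and the other 18 clusters held none. In conventional dendritic cell-like cells the count of 0 allows a level of up to 1.06 CPM (3 counts), and in neutrophil-like cells up to 2.33 CPM. The paralog C4a had 4 UMIs in the whole library and none in the Saa3, Prg4 cluster.

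Cfb, which carries the protease of the alternative convertase, was the gene most weighted to macrophage-like cells next to C3ar1. These cells held 192 of its 263 UMIs (73%) at 179 CPM (154 to 206). Monocyte-like cells had 14.4 CPM (7.86 to 24.1), conventional dendritic cell-like cells 15.2 CPM (11 to 20.4), neutrophil-like cells 2.33 CPM from 3 UMIs and T lineage-like cells 2.54 CPM from 2 UMIs. The ratio of macrophage-like to monocyte-like levels was 12.4 (7.24 to 23.2), and to conventional dendritic cell-like levels 11.8 (8.43 to 16.8). Without the cell filter the clusters regrouped into 238 macrophage-like cells, and the first difference was 0.92 in place of 2.95 on the log2(CPM + 10) scale, below a 2-fold threshold. It was 1.53 where cells were named by their own marker UMIs. After thinning, 24% (18.8 to 29.8) of macrophage-like cells had a Cfb UMI against 0.885% of T lineage-like cells, and 26.9% against 0.26% before it.

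Cfb was almost confined to the Ccl12, Ccl8 cluster among macrophage-like cells, with 187 of the 192 UMIs and 225 CPM (194 to 259). The Vcam1, Gdf15 cluster had 20.7 CPM (6.73 to 48.4) from 5 UMIs, which makes the ratio 10.8 (4.56 to 33.8). The Saa3, Prg4 cluster had 96.8 CPM (38.9 to 199), from 7 UMIs in 3 cells. Of the dendritic cell-like clusters, the 535 cells led by Ccl17 and Plet1 had 18.6 CPM and the 138 led by Ccl22 and Fscn1 had 21.6 CPM, while the 148 led by Cd209e and Cd209d had 0 of 589053 UMIs. The level of the Ccl17, Plet1 cluster was 3.65 times the limit of 3 counts in the Cd209e, Cd209d cluster. The exact interval of their ratio began at 2.81.

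Cfp, the gene of properdin, followed a different division of the macrophage-like cells. Its class levels were 277 CPM (246 to 310) in macrophage-like cells, 90.7 CPM (80 to 103) in conventional dendritic cell-like cells, 88.5 CPM (73 to 106) in neutrophil-like cells and 70.8 CPM (55.1 to 89.6) in monocyte-like cells. The last 3 had overlapping intervals. B lineage-like cells had 59.4 CPM (39.2 to 86.5) and T lineage-like cells 38.1 CPM (25.7 to 54.4), again with overlapping intervals. Thinned shares were 27.2% in macrophage-like cells, between 14.2% and 15.9% in the other 3 myeloid classes and 5.31% in T lineage-like cells. Before thinning these were 40.1% in macrophage-like, 11.7% in monocyte-like, 20.3% in neutrophil-like, 22.9% in conventional dendritic cell-like and 3.39% in T lineage-like cells.

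Within the macrophage-like class, Cfp was at 688 CPM (588 to 801) in the Vcam1, Gdf15 cluster and at 157 CPM (132 to 187) in the Ccl12, Ccl8 cluster. The Ccl12, Ccl8 level was thus 0.229 times (0.18 to 0.289) that of the Vcam1, Gdf15 cluster, the opposite direction to C3 and Cfb. The highest level of any cluster was 1425 CPM (1163 to 1728) in the Saa3, Prg4 cluster, where 17 of 21 cells had a Cfp UMI. The thinned shares were 71.4%, 59.2% and 19.4% in the Saa3, Prg4, the Vcam1, Gdf15 and the Ccl12, Ccl8 cluster. The dendritic cell-like clusters also differed, with 112 CPM in the Ccl17, Plet1 cluster, 61.1 CPM in the Cd209e, Cd209d cluster and 38.4 CPM in the Ccl22, Fscn1 cluster. That last cluster carries the migratory-cell receptor gene Ccr7 and was 2.92-fold (1.76 to 5.21) below the Ccl17, Plet1 cluster. A dividing cluster of 114 unnamed cells had 135 CPM (109 to 165).

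**Figure D2:**
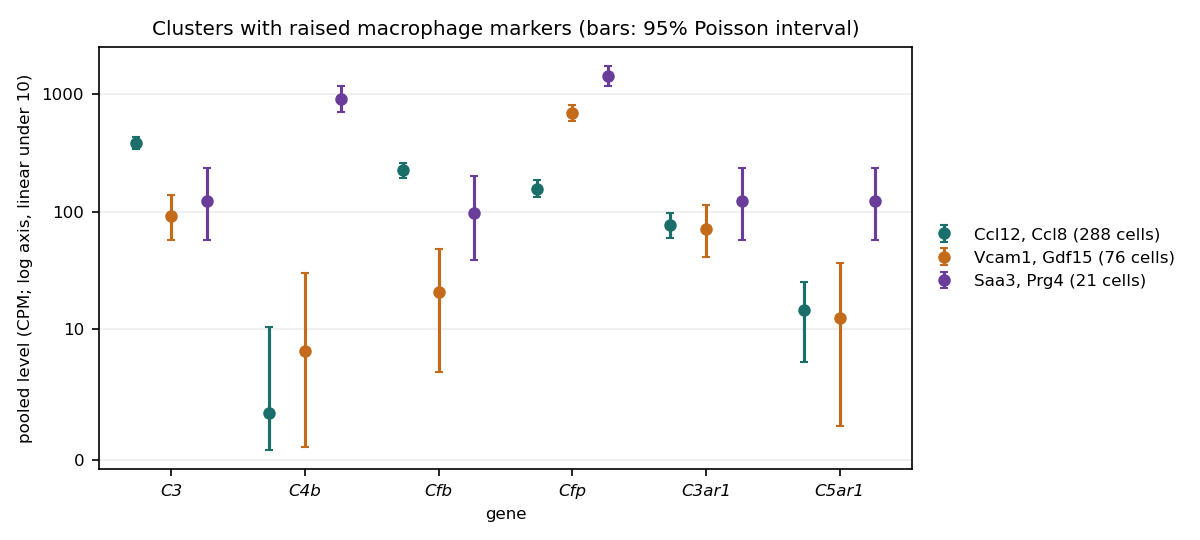
Pooled levels (y axis, CPM, logarithmic above 10) of the 6 genes (x axis) in 3 clusters with raised macrophage markers, with Poisson 95% intervals as bars. The Ccl12, Ccl8 cluster is highest for C3 (384 CPM) and Cfb (225 CPM), the Saa3, Prg4 cluster for C4b (913 CPM) and Cfp (1425 CPM), and C3ar1 intervals overlap in all 3.

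C3ar1, which encodes the receptor of the C3a fragment, had 103 UMIs, 81 of them (78.6%) in macrophage-like cells at 75.5 CPM (59.9 to 93.8). Monocyte-like cells followed at 5.13 CPM (1.67 to 12). The 11 eosinophil, basophil or mast cell-like cells had 1 UMI, too few for a level. Neutrophil-like cells had 2.33 CPM and conventional dendritic cell-like cells 1.06 CPM, each from 3 UMIs, and T lineage-like cells had 0 UMIs, which allows up to 3.81 CPM. Macrophage-like cells were 14.7-fold (6.05 to 46.5) above monocyte-like cells. After thinning, 14.4% (10.3 to 19.4) of macrophage-like cells had a UMI and 0 of 113 T lineage-like cells had, which allows a share of up to 2.65%.

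C3ar1 did not differ beyond counting error between the macrophage-like clusters. It was at 76.9 CPM (59.2 to 98.2) in the Ccl12, Ccl8 cluster and at 70.5 CPM (41.1 to 113) in the Vcam1, Gdf15 cluster, a ratio of 1.09 (0.631 to 1.99). The Saa3, Prg4 cluster had 124 CPM (56.9 to 236) from 9 UMIs. A difference inside the interval of the ratio was not detectable at this depth.

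C5ar1, the gene of the chemotactic C5a receptor, had the reverse distribution. Neutrophil-like cells held 301 of its 357 UMIs (84.3%) at 234 CPM (208 to 262), against 21.6 CPM (13.3 to 32.9) in monocyte-like, 14 CPM (7.82 to 23) in macrophage-like and 1.76 CPM (0.573 to 4.12) in conventional dendritic cell-like cells. T lineage-like cells had 3.81 CPM from 3 UMIs. The macrophage-like level was 0.0598 times (0.0331 to 0.1) the neutrophil-like one and 0.648 times (0.311 to 1.32) the monocyte-like one, an interval that includes no difference. After thinning, 31.5% (25.3 to 38.2) of neutrophil-like and 2.8% (1.13 to 5.68) of macrophage-like cells had a UMI, against 0.885% (0.0224 to 4.83) of T lineage-like cells. The unthinned shares were 41.8%, 3.57% and 0.781%. At this depth the macrophage-like share was not separable from the T lineage-like one. The macrophage-like level was 7.92 times (2.74 to 27.8) the conventional dendritic cell-like one, from 15 and 5 UMIs.

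C5ar1 ordered the neutrophil-like clusters in another way than C3. Its level was 44.9 CPM in the Elane, Prtn3 cluster, 79.4 CPM in the Camp, Ngp cluster, 250 CPM in the Ltf, Ly6g cluster, 446 CPM in the Retnlg, Mmp8 cluster and 452 CPM in the Csf3r, Stfa2l1 cluster. The Ltf, Ly6g cluster was 3.15-fold (2.07 to 4.94) above the Camp, Ngp cluster and 0.56 times (0.426 to 0.736) the Retnlg, Mmp8 cluster, and the last 2 clusters had a ratio of 0.986 (0.692 to 1.42). Thinned shares did not keep the upper step, at 43.8% in the Ltf, Ly6g cluster and 33.3% (18.6 to 51) in the 36 deep enough cells of the Retnlg, Mmp8 cluster. Summed neutrophil markers took 485833 CPM of the Retnlg, Mmp8 cluster and 176195 CPM of the Csf3r, Stfa2l1 cluster. Summed macrophage markers were at 253 and 2329 CPM in the same order. The levels of these 2 clusters thus rest on unlike totals, and the effect on their C5ar1 ratio was not tested. Outside this class, the Saa3, Prg4 cluster had 124 CPM from 9 UMIs and the Ace, Adgre4 cluster 46.8 CPM from 8 UMIs. Neutrophil markers summed to 581 CPM in the Saa3, Prg4 cluster, against 449976 CPM in neutrophil-like cells.

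**Figure D3:**
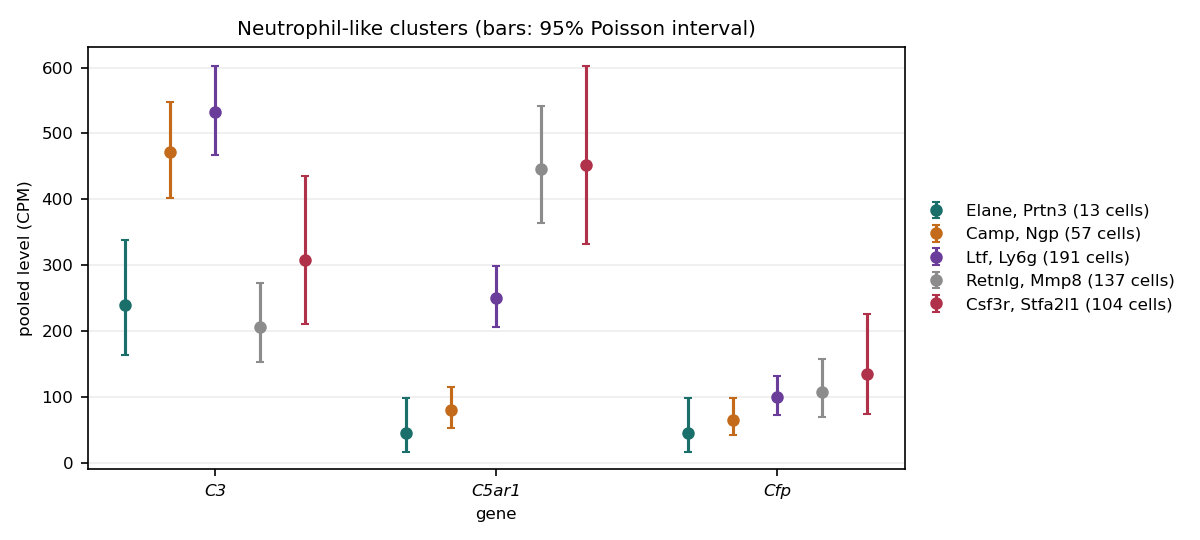
Pooled levels (y axis, CPM) of C3, C5ar1 and Cfp (x axis) in the 5 neutrophil-like clusters, with Poisson 95% intervals as bars. C3 peaks at 532 CPM in the Ltf, Ly6g cluster, whereas C5ar1 is highest, at 446 and 452 CPM, in the Retnlg, Mmp8 and the Csf3r, Stfa2l1 cluster.

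The levels of macrophage-like cells were then compared with the 3 other myeloid classes over all genes with at least 30 UMIs in the pair, on the scale of log2(CPM + 10) and with a threshold of 2-fold. Against monocyte-like cells, 3 of the 5 members with enough UMIs were higher (Cfb, Cfp and C3ar1, by 2.95, 1.83 and 2.50) and none was lower, where 7.25% of 6070 genes were higher and 2.75% lower. C3 differed by 0.26 and C5ar1 by -0.40, and C4b had too few UMIs in this comparison and the others. Cfb and C3ar1 reached the UMI minimum through macrophage-like cells alone (192 and 81 UMIs, against 14 and 5 in monocyte-like cells). The members were also chosen with earlier results of these data known, so these counts describe the members and support no wider statement. Against conventional dendritic cell-like cells, all 4 members with enough UMIs were higher (Cfb, C3, Cfp and C3ar1, by 2.91, 3.32, 1.51 and 2.95) and none was lower, beside 8.52% of 7760 genes higher and 2.06% lower. C5ar1 had too few UMIs there, and C3ar1 passed the minimum through macrophage-like cells alone (81 against 3 UMIs).

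Against neutrophil-like cells, Cfb, Cfp and C3ar1 of 5 members were higher, by 3.94, 1.54 and 2.79, and C5ar1 was lower, by -3.35, with C3 at -0.35. Of 6114 genes, 32.5% were higher and 8.19% lower, so the count of members higher is to be read against a wide background. Cfb and C3ar1 passed the UMI minimum through macrophage-like cells alone, with 3 neutrophil-like UMIs each. C5ar1 passed it through neutrophil-like cells alone (301 against 15 UMIs). S100a8 and S100a9 alone made up 193958 and 165580 CPM of the neutrophil-like cells, and scaling by the median of ratios shifts this comparison by 0.69 for genes far above the added 10 CPM and by less for lower ones. With it, Cfp was below the threshold at 0.90 and C3 passed it downwards at -1.02, and Cfb was at 3.54. The factor was 0.23 for conventional dendritic cell-like cells and -0.04 for monocyte-like cells. The directions of all other named members stayed as given under it.

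The wider list was counted in the same cells. Of 50 other complement genes, all with a row, 17 had 0 UMIs, 8 had 1 to 3 UMIs and 16 had 30 or more. The shares of all 32285 gene rows at such counts were not taken, so these counts are not read as particular to complement. The alternative pathway partner of Cfb, the protease gene Cfd, had 0 UMIs. The same held for the regulator genes Cfi and Serping1, for Mbl1, Mbl2, Masp1 and Masp2 of the lectin pathway and for C7, C8a, C8b and C9 of the membrane attack complex. Hc, the gene of C5, had 2 UMIs. In macrophage-like cells a count of 0 allows up to 2.79 CPM.

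Of the classical pathway, the recognition subunits of C1q were abundant and their partner proteases were not, with 6 UMIs of C1ra, 1 of C1s1 and 0 of C1s2 and C1rb in the whole library. C1qa, C1qb and C1qc were at 2744, 2425 and 1857 CPM in macrophage-like cells, and C1qa was higher in the Vcam1, Gdf15 cluster (3632 CPM) than in the Ccl12, Ccl8 cluster (2487 CPM), the direction of Cfp and not of C3 or Cfb. C2, whose product pairs with C4b in the classical convertase, had 33 UMIs in all and 19.6 CPM (12.1 to 29.9) in macrophage-like cells. Fcna, the gene of ficolin A, was at 207 CPM (154 to 273) in the Vcam1, Gdf15 cluster, with UMIs in 31 of 76 cells, and at 20.4 CPM (11.9 to 32.7) in the Ccl12, Ccl8 cluster. Of its 19 UMIs in the Saa3, Prg4 cluster, 14 came from 1 cell. Fcnb, the gene of ficolin B, was at 259 CPM in neutrophil-like cells, and reached 755 CPM in the Elane, Prtn3 cluster and 451 CPM in the Camp, Ngp cluster.

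Among regulators on the cell surface, Cd55 was highest in B lineage-like cells at 108 CPM (79.8 to 143) and stood at 13 CPM in macrophage-like cells. Cr1l was found in every named class of more than 11 cells, from 20.2 CPM in neutrophil-like to 84.8 CPM in NK and innate lymphoid-like cells, and Cd59a had 5 UMIs. All 70 UMIs of Clu were in conventional dendritic cell-like cells. Of the receptors for bound C3 fragments, Itgam was at 341 CPM in neutrophil-like and 62.4 CPM in macrophage-like cells, Itgax at 165 CPM in macrophage-like and 156 CPM in conventional dendritic cell-like cells, and their shared partner Itgb2 at 330 CPM in neutrophil-like cells. Vsig4, a complement receptor of tissue macrophages, had 3 UMIs. C5ar2, the other C5a receptor, had 22 of its 28 UMIs in neutrophil-like cells, the class of C5ar1. Calr and C1qbp, multi-purpose proteins that can bind C1q, were at 451 and 185 CPM in conventional dendritic cell-like cells, which did not exceed the macrophage-like 440 CPM of Calr or the T lineage-like 182 CPM of C1qbp beyond counting error.

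Of the listed genes with at least 30 UMIs in the pair, 5 of 10 were higher in macrophage-like than in monocyte-like cells (C1qa, C1qb, C1qc, Fcna and Itgax) and none was lower, with a list median of 1.16 on the log2 scale beside 0.06 for all genes and 7.25% of all genes higher. Against conventional dendritic cell-like cells, 5 of 11 were higher (the 3 C1q genes, Fcna and Itgam) and Clu was lower, with medians of 0.73 and 0.14, where 8.52% of all genes were higher. Against neutrophil-like cells, 7 of 12 were higher and Fcnb and Itgam lower, with medians of 2.41 and 0.63, where 32.5% of all genes were higher and 8.19% lower. Fcna passed the minimum through macrophage-like cells alone in each pair (67 UMIs), Fcnb through neutrophil-like (333) and Clu through conventional dendritic cell-like cells (70). The 3 C1q genes encode subunits of 1 complex, and the list was chosen with earlier results of these data known. These counts and medians are descriptions and were not tested.

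**Figure D4:**
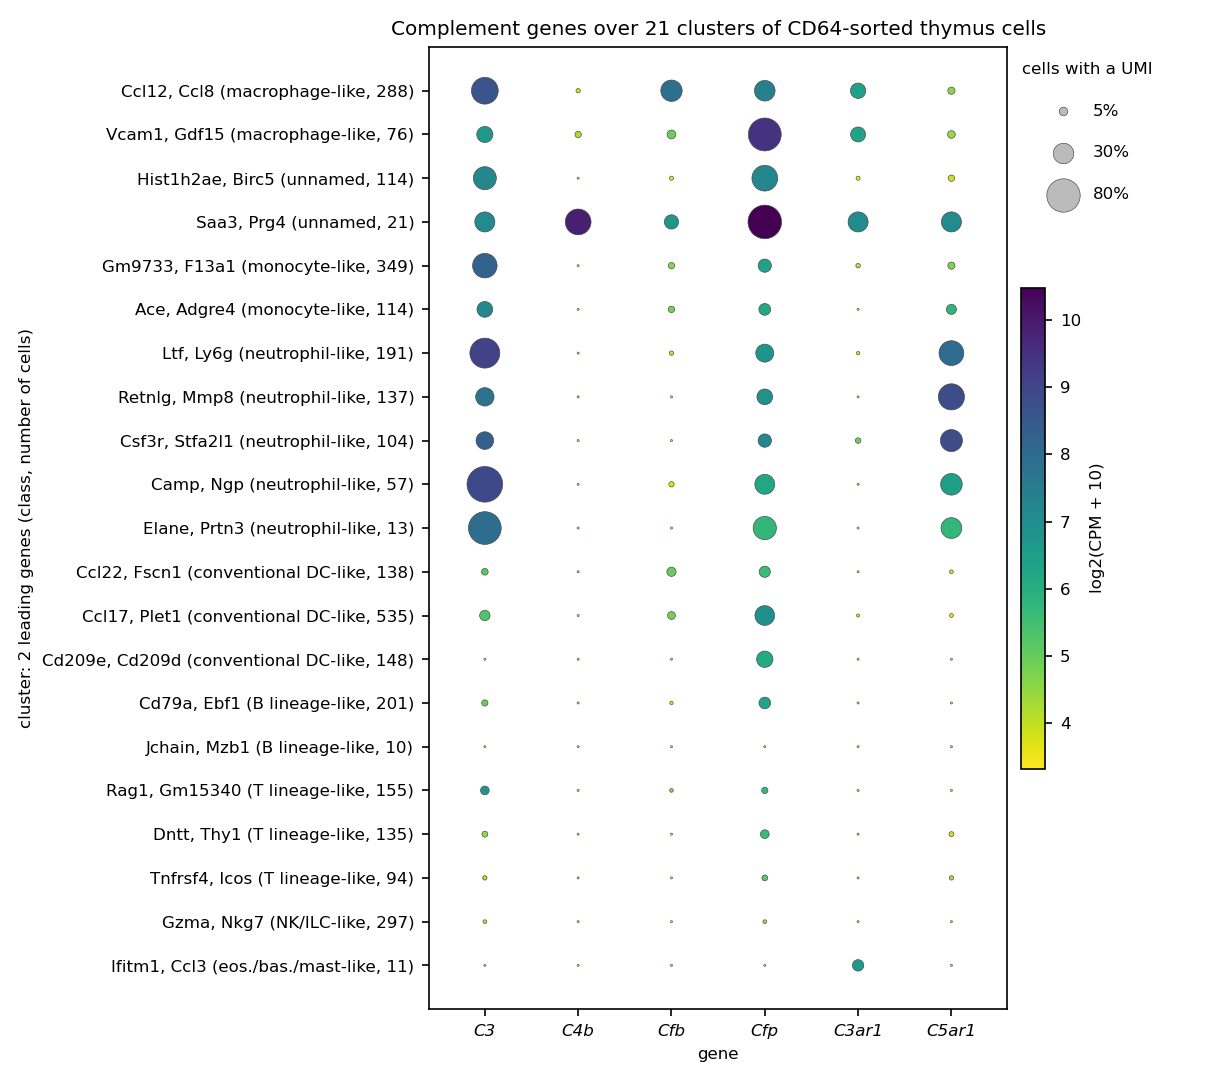
The 6 genes (x axis) over 21 clusters (y axis, with their leading genes, class and number of cells); the colour is the pooled level as log2(CPM + 10) and the dot area the share of cells with a UMI. C4b is seen in 3 clusters, and C5ar1 and C3 share the neutrophil-like clusters. Cfp is at 0 UMIs in 2 small clusters of 11 and 10 cells, which allows up to 265 and 44.4 CPM (3 counts).

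Over the 21 clusters, the pooled levels on the log2(CPM + 10) scale gave a Pearson correlation of 0.72 between C3 and C5ar1, 0.64 between Cfp and C4b and 0.60 between Cfb and C3ar1. C3 and Cfb had 0.35. These describe clusters of 1 library that differ in depth and size, and the C4b values rest on a single cluster. Among 4406 genes with at least 200 UMIs, those most like C3 were Hp (0.91), Mgst1 and Mtus1 (both 0.90), and those most like C5ar1 were Slfn4 (0.92), Fpr2 and Lrg1 (both 0.91). Cfb was most like Dnase1l3 and Ccl12 (both 0.85) and F11r (0.83), C3ar1 most like Tpp1 (0.85), Tnf (0.84) and Sgk1 (0.82), Cfp most like App (0.88), Grn and Kctd12 (both 0.87), and C4b most like Pf4 (0.96), Fn1 (0.77) and Lpl (0.75).

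Within single cells thinned to 2000 UMIs, 69.2% of 250 macrophage-like, 72.3% of 213 neutrophil-like and 51.6% of 225 monocyte-like cells had a UMI of at least 1 of the 6 genes. The value was 20.4% in conventional dendritic cell-like and 10.6% in T lineage-like cells. At least 3 of the genes were seen in 21 macrophage-like, 6 neutrophil-like and 0 monocyte-like cells. Cfb and C3 UMIs met in 35 macrophage-like cells, where the product of their shares gives 22.8, a ratio of 1.54 (1.07 to 2.13). Within the Ccl12, Ccl8 cluster alone the ratio was 1.34 (0.927 to 1.87), an interval that includes 1. Cfb and Cfp met in 10 macrophage-like cells beside a product of 16.3, a ratio of 0.613 (0.294 to 1.13). C3 and C5ar1 met in 36 neutrophil-like cells beside a product of 33.7.

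The Ccl12, Ccl8 cluster also carries Cxcl9, a chemokine gene induced by interferon gamma, and its cells were divided by whether they had a Cxcl9 UMI. C3 was at 774 CPM (628 to 945) in the 38 cells with Cxcl9 and at 315 CPM (275 to 360) in the 250 without, a ratio of 2.46 (1.91 to 3.13). Cells with a Cxcl9 UMI were deeper, at a median of 3308 against 2432.5 UMIs. After thinning to 2000 UMIs the C3 ratio was 2.5 (1.72 to 3.57), while the shares of cells with a C3 UMI were 53.8% (14 of 26 cells) and 42.3% (74 of 175). A single cell with Cxcl9 held 28 of the C3 UMIs. Without it, a step added after seeing the data, the unthinned levels were 567 and 315 CPM and the ratio 1.8 (1.35 to 2.36). That cell had 3512 UMIs and so was kept in thinning, and the thinned ratio was not recomputed without it. Cfb was at 279 and 215 CPM, a ratio of 1.3 (0.873 to 1.89), and of 1.62 (0.909 to 2.73) after thinning. The Cfp levels of 104 and 167 CPM gave 0.622 (0.322 to 1.11) and the C3ar1 levels of 39.9 and 83.4 CPM gave 0.478 (0.15 to 1.18). These 3 intervals include no difference. Over all macrophage-like cells, Cfb (276 and 166 CPM, ratio 1.66, 1.12 to 2.41) and Cfp (110 and 299 CPM, ratio 0.369, 0.199 to 0.63) also differed, and all but 1 of the 39 cells with Cxcl9 belonged to this cluster. C1qa, measured the same way, was at 2164 and 2544 CPM, a ratio of 0.85 (0.746 to 0.967).

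**Figure D5:**
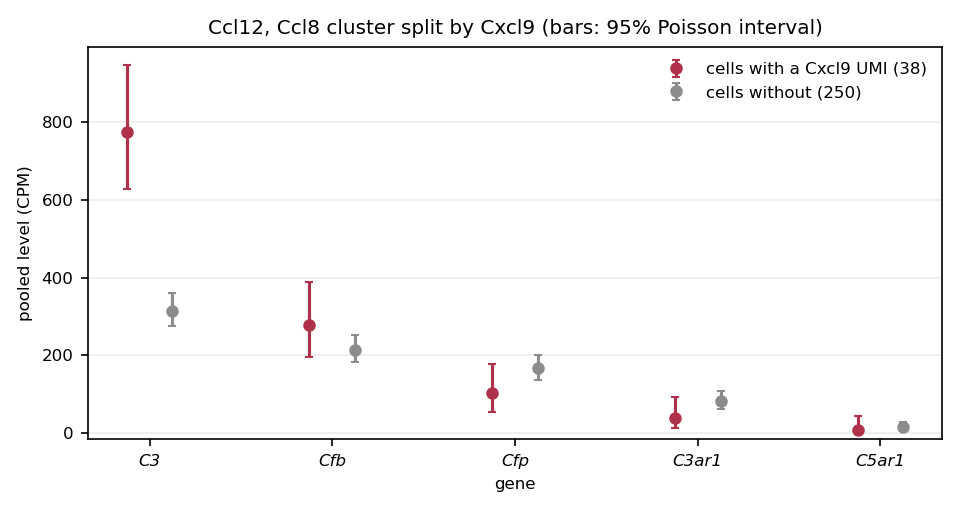
Pooled levels (y axis, CPM) of 5 of the genes (x axis) in cells of the Ccl12, Ccl8 cluster with and without a Cxcl9 UMI, with Poisson 95% intervals as bars. The C3 intervals, around 774 and 315 CPM, lie apart, and the level with Cxcl9 is 567 CPM without the cell that holds the most C3.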

How the data were processed

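The authors deposited UMI counts per gene and barcode. Per the file headers they were made with Cell Ranger 6.0.0 (2021) and 8.0.0 (2024), and the submitters' processing notes name mm10. Whether intronic reads were counted, which would change levels, is not given in the sources used here. Barcodes of the 2024 library were not used here, so barcodes shared by the libraries were not counted. The 6 genes and all lists were chosen with earlier results of these data known.

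From the counts, clusters were built with scanpy 1.11.5 (2000 variable genes, of which 1986 remained without complement genes, 30 principal components, 15 neighbours, Leiden in igraph 0.11.9 at resolution 1.0). A cluster was named from 3 or more raised markers (log2 ratio of at least 1), unless its 10 leading genes held more markers of another class. The names are rebuilt and can differ from the study's. The Saa3, Prg4 cluster had a monocyte marker and no macrophage marker among those genes and stayed unnamed. Scrublet called 3 doublets, which has not worked, and all cells were kept. UMIs were summed per class or cluster, given as CPM and compared as log2 ratios with 10 CPM added, with no test on 1 library. Intervals are exact 95% intervals (Poisson for levels, Clopper-Pearson for shares, conditional binomial for ratios of levels), and a count of 0 is given as a limit of 3 counts. Ratios for pairs of genes in a cell are an exception. Their interval is the Poisson interval of the cells with both genes, divided by the product of the shares taken as fixed, and is approximate. The ratio code was tested on simulated data. Positions come from GENCODE M21. Named are the 6 genes, listed complement genes of at least 100 CPM in a named class or that partner a member, leading cluster genes and the 3 genes most like each member. Genes listed at 0, and Fcna, Clu and Hc, were named after their values were seen. 1 listed gene is not reported here. Alternatives changed the cell filter, doublets, resolution, genes used for clustering, naming by marker UMIs, scaling, thinning, pseudocount, UMI minimum and fold.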

Additional observations from a re-analysis of the deposited data

How the results depend on the processing

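None of the results changed direction among those past 2-fold, and all values here are log2 ratios of macrophage-like over the named class unless given as counts. Over 11 alternatives, 111 recomputed ratios stayed within their counting interval and 43 left it, as did 38 pooled levels and 39 shares of cells, against 178 and 177 that stayed. C4b in macrophage-like cells was 63.2 CPM at resolution 0.5, 30.7 CPM by marker UMIs, 62 CPM with the Saa3, Prg4 cluster added and 0 after thinning, in place of 4.66 CPM, and Cfb in monocyte-like cells was 73.5 CPM without the cell filter and 36.8 CPM by marker UMIs, in place of 14.4 CPM. Without the cell filter, Cfb was 0.92 over monocyte-like and 2.43 over conventional dendritic cell-like cells, C3 0.03 over monocyte-like, C3ar1 3.32 over conventional dendritic cell-like, and Cfp 2.20, 1.94 and 1.85 over monocyte-like, neutrophil-like and conventional dendritic cell-like cells. Only 238 cells were then macrophage-like. Naming cells by marker UMIs gave C3 0.52, -0.74 and 3.93 in the same order, Cfb 1.53 and 3.39 over the first and second, C5ar1 0.45 over monocyte-like and Cfp 1.96 over conventional dendritic cell-like cells. Keeping complement genes for clustering gave Cfb 4.30 over neutrophil-like and 3.36 over conventional dendritic cell-like cells. Removing the highest doublet scores gave Cfb 4.32 over neutrophil-like, Cfp 1.42 over monocyte-like and C3 3.79 over conventional dendritic cell-like cells. At resolution 0.5, Cfp was 2.18, 1.90 and 1.88 in the same order. Adding the Saa3, Prg4 cluster, an alternative chosen after seeing the data, gave Cfp 1.87 over neutrophil-like and 1.83 over conventional dendritic cell-like cells. Means over cells gave C5ar1 -3.95 over neutrophil-like and Cfp 2.38 over monocyte-like and 1.93 over conventional dendritic cell-like cells. Scaling by the median of ratios gave C3 -1.02, C5ar1 -3.87 and Cfp 0.90 over neutrophil-like cells. With a pseudocount of 1 CPM, Cfb was 3.55, 5.76 and 3.47 and C3ar1 3.64, 4.52 and 5.21 in the same order, C3 3.74 over conventional dendritic cell-like and C5ar1 -3.97 over neutrophil-like cells. Thinning to 2000 UMIs gave Cfp 1.31 over monocyte-like, and over conventional dendritic cell-like cells Cfp 1.16, C3 3.65 and Cfb 3.26, with C5ar1 0.46 over monocyte-like cells. Listed complement genes lower in macrophage-like cells, 0 against monocyte-like in the values reported, numbered 1 with a stricter cell filter, with the highest doublet scores removed and with complement genes kept for clustering, and 2 at 1.5-fold. Against neutrophil-like cells they were 4 in place of 2 at 1.5-fold, under the median of ratios and without the highest doublet scores, and against conventional dendritic cell-like cells 2 in place of 1 at 1.5-fold. Counts of listed genes that were higher stayed within 1.5 times under every alternative run. The cause of these changes was not tested. No paired analysis was possible because the labels give 1 group and only 1 library has gene names. Depth limits C4b (71 UMIs) and C3ar1 (103 UMIs) most.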
